A study of Mus musculus with 24 samples.

Results

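The 7 genes described here encode the Fos and Jun families of the transcription factor AP-1: Fos, Fosb, Fosl1 and Fosl2 (the 4 Fos-family members) and Jun, Junb and Jund (the 3 Jun-family members). They were chosen by name, as the complete pair of families, and make up 7 of the 55177 genes to which the transcripts of the tables were assigned, with 21 of 141429 annotated transcript forms. AP-1 is a dimer of basic leucine zipper proteins. Fos-family proteins bind DNA only with a partner, usually a Jun-family protein, whereas Jun-family proteins can also pair with each other. In neurons, calcium entry activates kinases that act on the factors already bound at the Fos, Fosb and Junb promoters, so that these genes are transcribed within minutes and without new protein synthesis. Jund and Fosl2 are known to be present in many resting cells, and a spliced form of Fosb, ΔFosB, is known for its stability in the brain.

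RNA was sequenced from 24 libraries of primary cortical neurons, taken from mouse embryos at embryonic day 16.5 and kept for 7 or 18 days in vitro (DIV7, DIV18). All cultures had been silenced overnight with 1 µM tetrodotoxin, a sodium channel blocker, and 100 µM D-AP5, an NMDA receptor blocker. Cultures called KCl were then depolarized with 50 mM KCl for 30 min, and the others are called rest. The 4 DIV7 libraries came from wild-type neurons given 0.1% DMSO (2 at rest, 2 under KCl) and were made from poly(A)-selected RNA. The 20 DIV18 libraries were made from total RNA depleted of ribosomal RNA. At DIV18 the neurons carried a non-targeting guide (NT; 2 at rest, 2 under KCl), or a knockout (KO) of Smarcc2, a subunit of BAF chromatin remodelling complexes, together with 1 of 4 constructs. These were an empty vector (3 at rest, 3 under KCl), wild-type Smarcc2 (WT; 2 at rest, 3 under KCl), Smarcc2 with the substitution S586E (3 at rest) or Smarcc2 with S586A (2 under KCl). The labels take the cortex of each embryo as a biological replicate, but do not say which libraries share an embryo. The cultures are mixed primary cells rather than a clone.

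Over all transcripts, the DIV7 libraries held between 24536056 and 30135576 estimated counts, and those of DIV18 between 14510199 and 24024959. Levels are given in CPM, counts scaled to a common library total, after TMM normalisation, or, where genes are compared with each other, in TPM, the unit of transcript abundance that corrects for transcript length. DIV7 and DIV18 libraries differ in RNA selection and were normalised separately, so a level at one age set beside a level at the other is a description. Smarcc2 stood at 237 to 283 CPM in the NT libraries, 47.1 to 64.1 CPM in KO with vector, and 737 to 1340 CPM in the libraries with a Smarcc2 construct. At rest Smarcc2 stood at 756 to 816 CPM with WT and 1160 to 1280 CPM with S586E. Under KCl it stood at 737 to 1090 CPM with WT and 1300 to 1340 CPM with S586A. The 6 neuronal markers summed to 3170 to 4250 CPM over all libraries, and the 6 astrocyte markers to 124 to 752 CPM. As these are bulk samples, fewer cells of a type and less RNA per cell cannot be told apart.

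Promoter windows of 6 of the 7 members, 250 bases before to 50 bases after the annotated start, were found in the RefSeq table for build GRCm38.p6. The windows of Fos, Fosb and Junb are shown because their RNAs had the largest responses, and that of Jun for comparison. Capitals mark matches, on either strand, to the GC box GGGCGG, the TATA box TATAAA or TGACG, which is the first part of the cAMP response element TGACGTCA. Positions below are counted from the RefSeq start, whose base is 0, on the gene's strand. The windows lie at chr12:85473640-85473939 (plus strand) for Fos, chr7:19309996-19310295 (minus) for Fosb, chr8:84978699-84978998 (minus) for Junb and chr4:95052173-95052472 (minus) for Jun.
Fos: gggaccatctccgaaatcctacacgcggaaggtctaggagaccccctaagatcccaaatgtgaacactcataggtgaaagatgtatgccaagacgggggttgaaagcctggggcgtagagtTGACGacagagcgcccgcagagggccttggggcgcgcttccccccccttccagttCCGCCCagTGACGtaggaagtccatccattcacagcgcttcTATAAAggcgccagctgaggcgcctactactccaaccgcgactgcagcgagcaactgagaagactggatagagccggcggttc
Fosb: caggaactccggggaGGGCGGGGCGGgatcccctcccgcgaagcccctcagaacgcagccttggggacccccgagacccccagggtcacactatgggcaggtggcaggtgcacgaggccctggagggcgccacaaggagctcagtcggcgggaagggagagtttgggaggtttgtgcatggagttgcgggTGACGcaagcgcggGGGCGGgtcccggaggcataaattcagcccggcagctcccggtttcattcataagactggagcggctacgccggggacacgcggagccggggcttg
Junb: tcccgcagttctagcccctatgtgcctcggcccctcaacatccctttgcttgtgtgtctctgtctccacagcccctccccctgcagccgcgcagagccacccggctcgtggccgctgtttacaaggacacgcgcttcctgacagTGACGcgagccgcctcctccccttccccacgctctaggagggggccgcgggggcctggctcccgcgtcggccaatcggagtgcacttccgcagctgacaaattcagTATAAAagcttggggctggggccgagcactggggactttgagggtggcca
Jun: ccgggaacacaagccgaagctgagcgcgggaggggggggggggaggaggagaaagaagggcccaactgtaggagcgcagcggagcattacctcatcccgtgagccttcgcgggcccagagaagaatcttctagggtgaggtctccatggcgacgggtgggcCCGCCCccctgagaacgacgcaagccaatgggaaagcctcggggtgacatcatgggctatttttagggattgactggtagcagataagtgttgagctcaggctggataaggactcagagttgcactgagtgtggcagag

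The letters TGACG occurred in the Fos window at -129 and -66, in the Fosb window at -60 and in the Junb window at -106. They did not occur in those of Fosl2, Jun or Jund, and 20.8% of all 32851 windows held them. That motif was added to the search after the members' values had been seen. The TATA box occurred in the windows of Fos (-33) and Junb (at the RefSeq start itself), against 13.6% of all windows, and the GC box in those of Fos, Fosb, Fosl2 and Jun, against 35.7%. The complete cAMP response element (1.79% of windows), the phorbol ester response element TGACTCA, to which AP-1 itself binds (5.2%), and the CArG box of serum response factor (1.63%) were found in none of the 6. Variants of these elements were not searched, so related sites, such as tgacatca in the Jun window, were not counted. Sites more than 250 bases before the start lie outside the windows and were not searched, so their absence from these genes cannot be read from this. The RefSeq start of Jund lies upstream of the GENCODE start of its coding form, and that of Fosl2 downstream of it, so these windows may not be the promoters of the forms counted here. The RefSeq start of Junb also lies upstream of the start of Junb-201 (chr8:84978718), which is inside the window. Counted from Junb-201, the TATA box and TGACG of Junb would have other positions.

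At DIV7, 30 min of KCl raised the RNA of 6 of the 7 members, with the largest changes in Fosb, Fos and Junb. Fos RNA stood at 3.65 and 4.47 CPM at rest and at 598 and 618 CPM under KCl. Fosb RNA stood at 2.21 and 1.45 CPM at rest and at 458 and 500 CPM under KCl. Junb, whose protein forms dimers with the Fos proteins, went from 13.0 and 10.6 CPM to 350 and 401 CPM. The resting and depolarized libraries of these 3 genes lay far apart, with ratios of the group means of 150 for Fos, 262 for Fosb and 31.8 for Junb. On the log2 scale the changes were 7.23 ± 0.08 (SE, edgeR adjusted p = 4.42e-08) for Fos, 8.01 ± 0.12 (edgeR adjusted p = 2.01e-07) for Fosb and 4.99 ± 0.11 (edgeR adjusted p = 1.4e-06) for Junb.

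The other members started from higher or much lower levels and moved less. Fosl2, which encodes Fra-2, stood at 171 and 160 CPM at rest and at 271 and 237 CPM under KCl, a log2 change of 0.62 ± 0.07 (edgeR adjusted p = 0.00234). Jun stood at 133 and 122 CPM at rest and at 168 and 180 CPM under KCl, a log2 change of 0.46 ± 0.06 (edgeR adjusted p = 0.00395). In both genes the 2 depolarized libraries lay above both resting ones. Fosl1, which encodes Fra-1, was close to the limit of detection, with 9 and 13 estimated counts at rest (0.316 and 0.524 CPM) and 40 and 37 under KCl (1.35 CPM in each). Its log2 change was 1.69 ± 0.35 (edgeR adjusted p = 0.019), and the call was lost with DESeq2, with length offsets and without rest replicate 1 or KCl replicate 1 (adjusted p of 0.000258 to 0.215 over 10 alternatives). The Fosl1 change itself was 0.87 on the log2 scale with length offsets (edgeR adjusted p = 0.215) and 3.56 with coding transcripts only (edgeR adjusted p = 0.0116). Jund was the exception, with 227 and 210 CPM at rest and 209 and 203 CPM under KCl. Its depolarized libraries lay below the resting ones by less than the test could call (log2 change -0.09 ± 0.05, edgeR adjusted p = 0.279).

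Across all genes tested at DIV7, 7.34% were called higher (1455 of 19822), against the 6 of 7 members. In simulated DIV7 data with 200 genes changed 4-fold, 13.7% of the calls were false. Smaller changes were not simulated and more genes were called in the real data, so this share does not carry over. How certain the calls of members with small changes are was not measured.

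**Figure D1:**
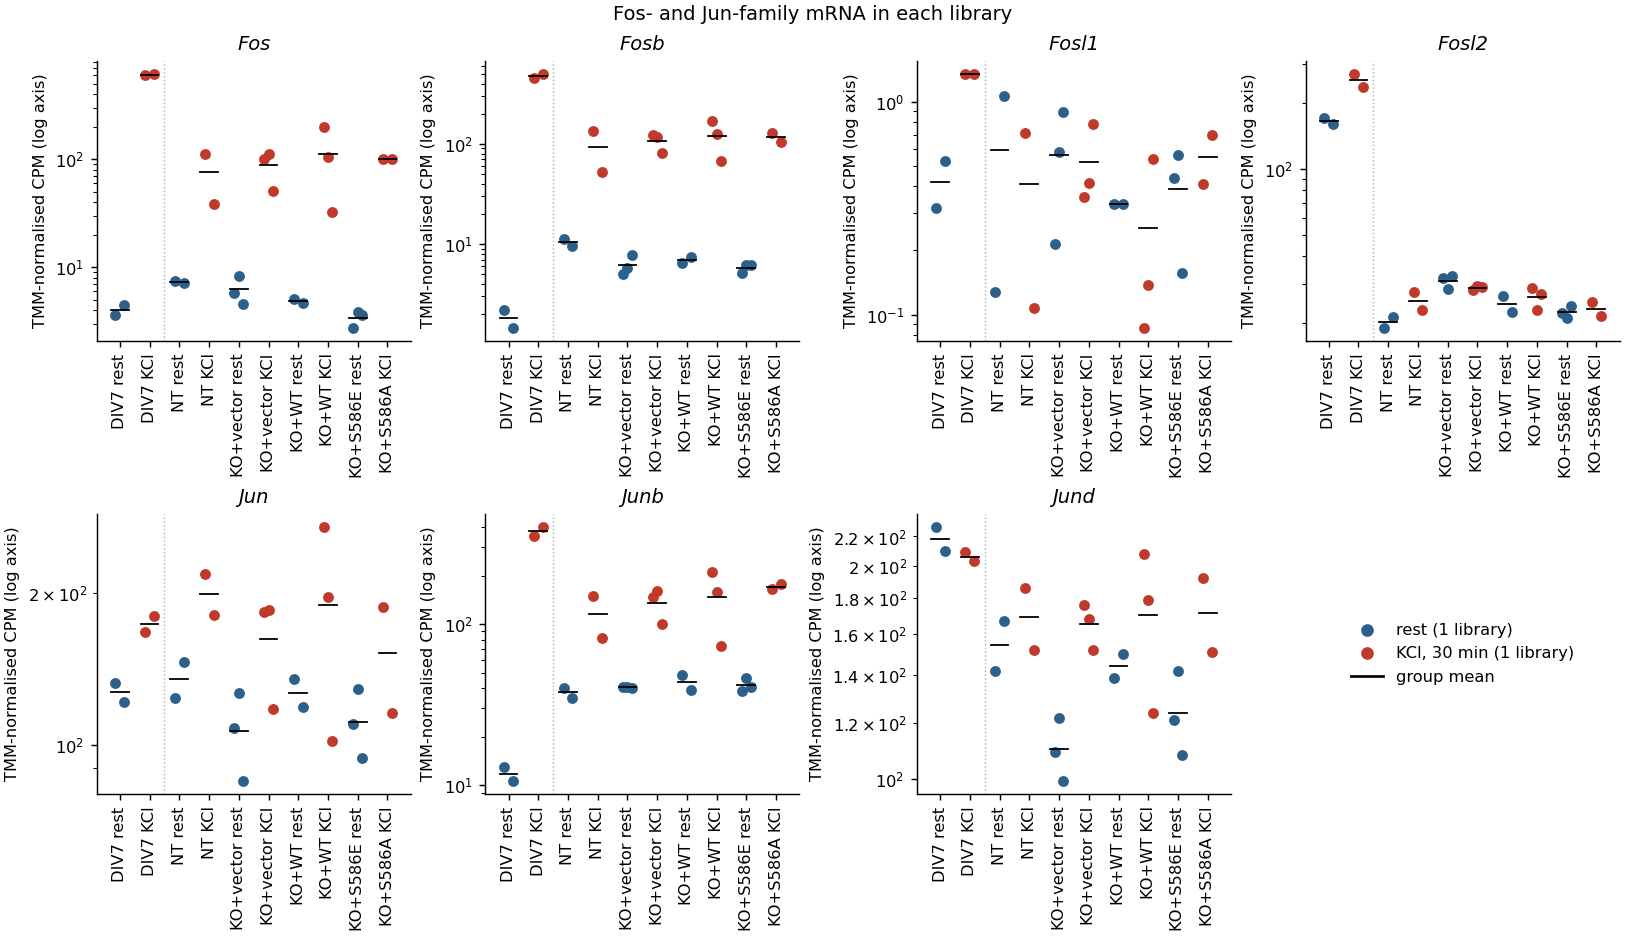
CPM of each of the 7 genes (log axes, which differ between panels) in each of the 24 libraries, with blue points for rest, red points for KCl and a bar for the group mean; the dotted line separates DIV7 from DIV18, which were normalised separately. Fos, Fosb and Junb under KCl lie above rest in every construct, with Fos reaching 618 CPM at DIV7 and 197 CPM at DIV18.

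At DIV18 the same 3 genes were higher under KCl than at rest in each of the 3 constructs measured in both states, by smaller ratios and with a wider spread between libraries. Fos RNA in NT neurons stood at 7.52 and 7.25 CPM at rest and at 113 and 38.5 CPM under KCl. In KO neurons with vector it stood at 5.82, 8.34 and 4.59 CPM at rest and at 101, 111 and 51.2 CPM under KCl. In KO neurons with WT it stood at 5.08 and 4.65 CPM at rest and at 197, 106 and 32.7 CPM under KCl. The lowest depolarized library of the 3 constructs (32.7 CPM) lay above the highest resting one (8.34 CPM), and the 3 depolarized WT libraries were the most spread. The ratios of the means were 10.3 in NT, 14.1 with vector and 23.0 with WT.

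Fosb RNA in NT neurons stood at 11.1 and 9.64 CPM at rest and at 135 and 51.9 CPM under KCl. With vector it stood at 5.06, 5.80 and 7.83 CPM at rest and at 122, 117 and 80.6 CPM under KCl. With WT it stood at 6.50 and 7.45 CPM at rest and at 169, 124 and 67.0 CPM under KCl. The groups did not overlap in any of the 3, and the ratios of the means were 9.03, 17.1 and 17.2 in the same order. Junb RNA was already present at rest, at 40.3 and 35.0 CPM in NT, 40.8, 40.8 and 40.2 CPM with vector and 48.5 and 39.2 CPM with WT. Under KCl it stood at 150 and 81.6 CPM in NT, at 147, 161 and 99.9 CPM with vector and at 209, 158 and 73.0 CPM with WT. Its depolarized libraries also lay above the resting ones in each construct, by ratios of the means of 3.08, 3.34 and 3.34.

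Averaged over NT, vector and WT, the log2 response at DIV18 was 3.90 ± 0.34 for Fos (edgeR adjusted p = 4.13e-06), 3.79 ± 0.23 for Fosb (edgeR adjusted p = 2.55e-08) and 1.70 ± 0.18 for Junb (edgeR adjusted p = 4.43e-05). These 3 of the 7 members were called, against 0.368% of all genes called higher (77 of 20940). Counting only protein-coding transcripts, the average Fosb response was 2.98 on the log2 scale, a fold change more than 1.5 times smaller, and it was still called (edgeR adjusted p = 7.43e-06). In NT, Fosb was called (log2 change 3.17 ± 0.40, edgeR adjusted p = 0.00463), whereas Fos (3.36 ± 0.61, edgeR adjusted p = 0.0912) and Junb (1.62 ± 0.34, edgeR adjusted p = 0.206) were not, and 0.00955% of all genes (2) were called higher. The Fosb call in NT was lost with coding transcripts only (log2 change 2.44, edgeR adjusted p = 0.206), in a fit of the NT libraries alone, and without either resting library. Without NT KCl replicate 1 the NT changes were 2.32 for Fosb (edgeR adjusted p = 0.0257) and 2.38 for Fos (edgeR adjusted p = 0.575) on the log2 scale.

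With vector, Fosb (4.11 ± 0.35, edgeR adjusted p = 1.25e-05), Fos (3.80 ± 0.52, edgeR adjusted p = 0.00329) and Junb (1.74 ± 0.28, edgeR adjusted p = 0.0145) were called, against 0.0621% of all genes. The Junb call with vector was lost on leaving out any 1 library of the comparison other than KCl replicate 3, and the Fos call without rest replicate 1. With WT, Fosb (4.10 ± 0.41, edgeR adjusted p = 0.000134) and Fos (4.52 ± 0.64, edgeR adjusted p = 0.00567) were called and Junb was not (1.74 ± 0.32, edgeR adjusted p = 0.0567), against 0.0382% of all genes. The Fos call with WT was lost in a fit of the WT libraries alone and without either resting library, and without WT KCl replicate 1 the Fos change was 3.83 (edgeR adjusted p = 0.00751). With coding transcripts only, the Fosb change was 3.20 with vector (edgeR adjusted p = 0.00152) and 3.31 with WT (edgeR adjusted p = 0.00914).

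Jun encodes c-Jun, whose activity is raised by phosphorylation. It stood at 124 and 146 CPM at rest and 218 and 181 CPM under KCl in NT, at 108, 127 and 84.8 against 184, 185 and 118 CPM with vector, and at 135 and 119 against 271, 197 and 102 CPM with WT. Vector KCl replicate 3 and WT KCl replicate 3 lay within or below the resting range, and the average log2 change of 0.58 ± 0.17 did not pass (edgeR adjusted p = 0.232). It was called without WT KCl replicate 3 (0.68, edgeR adjusted p = 0.0245).

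Jund RNA stood at 142 and 167 CPM at rest and 186 and 152 CPM under KCl in NT, and at 139 and 150 against 208, 179 and 124 CPM with WT, where the groups overlapped. With vector it stood at 109, 122 and 99.2 CPM at rest and at 176, 168 and 152 CPM under KCl, without overlap. The average log2 change was 0.32 ± 0.10 and did not pass (edgeR adjusted p = 0.253), and it was called without WT KCl replicate 3 (0.38, edgeR adjusted p = 0.0371). The change with vector alone was 0.59 ± 0.15 and did not pass either (edgeR adjusted p = 0.262).

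Fosl2 RNA ranged from 18.9 to 32.6 CPM over the resting DIV18 libraries and from 21.4 to 29.2 CPM over the depolarized ones, with an average log2 change of 0.11 ± 0.07 (edgeR adjusted p = 0.758, 95% interval -0.04 to 0.25). Fosl1 had between 2 and 23 estimated counts in the DIV18 libraries, and no direction was detectable at this depth.

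**Figure D2:**
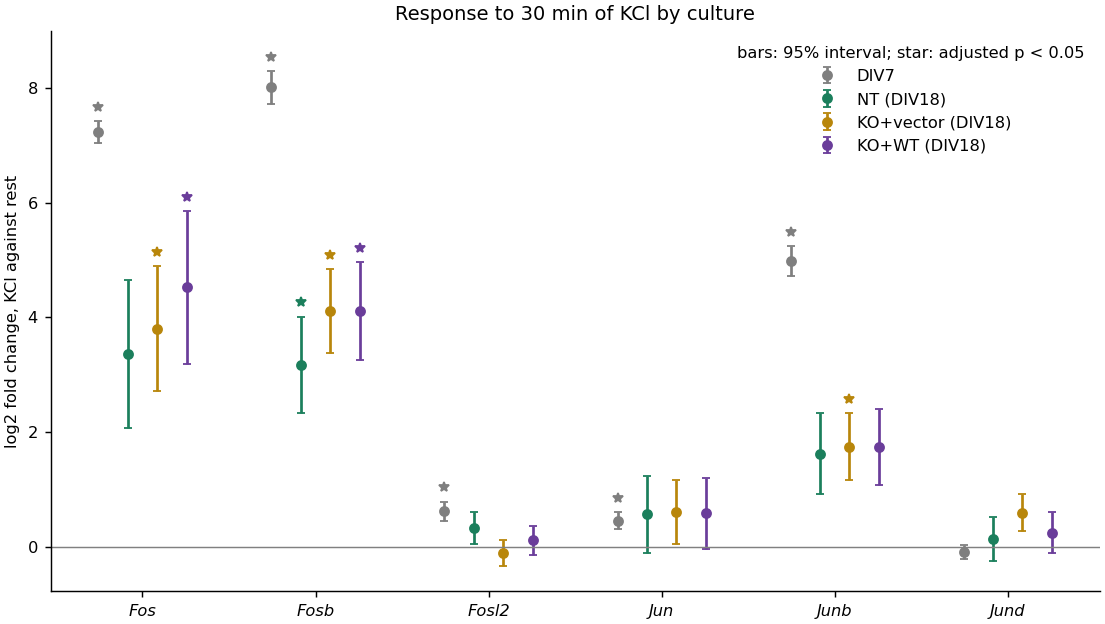
log2 fold change of KCl against rest for 6 genes in DIV7 neurons and in the 3 DIV18 constructs measured in both states, with 95% intervals and a star for an adjusted p under 0.05 (Fosl1, at the limit of detection, is left out). The DIV7 points of Fos, Fosb and Junb (7.23, 8.01 and 4.99) lie above those of all 3 DIV18 constructs, whereas those of Jun overlap.

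The response itself was compared between the ages, as NT at DIV18 minus DIV7. Fosb responded less at DIV18 by 4.85 on the log2 scale (-4.85 ± 0.60, edgeR adjusted p = 3.93e-05), Fos by 3.88 (-3.88 ± 0.84, edgeR adjusted p = 0.015) and Junb by 3.38 (-3.38 ± 0.47, edgeR adjusted p = 0.000161). These were 3 of the 7 members, and 0.49% of all genes (110 of 22459) were called lower in this comparison and 298 higher. The Fos difference lost its call without DIV7 rest replicate 1 or 2, NT rest replicate 1 or 2, or NT KCl replicate 2 (adjusted p of at most 0.104). Without NT KCl replicate 1 the differences were -5.71 for Fosb (edgeR adjusted p = 4.08e-06) and -4.87 for Fos (edgeR adjusted p = 0.00494), and with coding transcripts only that of Fosb was -5.57 (edgeR adjusted p = 5.55e-05). For Jun (0.09, 95% interval -0.80 to 0.98), Fosl2 (-0.31, 95% interval -0.66 to 0.04) and Jund (0.21, 95% interval -0.31 to 0.72) no difference was called. In CPM, for Fos, Fosb and Junb both resting NT libraries stood above both resting DIV7 libraries and both depolarized ones below, on separately normalised scales. In TPM the resting order of Fos was reversed, with 4.82 and 3.97 TPM in NT against 4.85 and 5.45 TPM at DIV7. Fosb and Junb kept their resting order in TPM. Age in culture, RNA selection, DMSO and the guide change together between the 2 sets and cannot be told apart.

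The Fosb and Fos sums hold spliced and intron-containing forms, and the share of these differed between the sets. RNA selection and age in culture differ together between DIV7 and DIV18 here too and cannot be told apart. Fosb-204 is annotated as a retained-intron form of 1 exon that runs from the first exon of the coding form Fosb-201 into its introns, with 67.8% of its 3629 bases intronic. Fos-203 begins inside the first intron of Fos-201, and 30.7% of its 795 bases are intronic. At DIV7, Fosb-204 rose with the gene, from 6 and 4 estimated counts at rest to 1333 and 1225 under KCl, and its share of all Fosb counts was 9.52% and 10.8% at rest and 9.84% and 8.92% under KCl. At DIV18 its share was 30.7% and 17.1% at rest in NT, 19.1%, 23.6% and 21.1% with vector and 25.5% and 22.9% with WT. Under KCl it was 54.0% and 55.8% in NT, 57.6%, 55.1% and 61.9% with vector and 53.1%, 57.5% and 63.8% with WT.

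In each of these depolarized libraries the intron-containing form thus held at least 53.1% of the Fosb counts, and in each resting one at most 30.7%. The mean share rose from 22.9% ± 4.43 (SD, n = 7 libraries) to 57.3% ± 3.74 (SD, n = 8), by 34.5 points (exact permutation test of libraries, two-sided, p = 0.000155, the smallest that 6435 splits allow). Fos-203 rose from 4.66% ± 3.95 (SD, n = 7) to 21.2% ± 4.22 (SD, n = 8) of Fos counts, by 16.6 points (exact permutation test, two-sided, p = 0.000155). In TPM, which weighs its short length, the Fos-203 share rose by 33.6 points. Both tests were added after the shares had been seen. The S586E libraries at rest had Fosb-204 shares of 11.8%, 31.2% and 18.8% and the S586A libraries under KCl 58.6% and 60.1%. For Fos-203 the S586E libraries, with 50 to 90 Fos counts each, gave 0.0%, 18.9% and 14.5%, which reach into the depolarized range of 16.2% to 28.3%.

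Among the depolarized libraries of WT, the one with the lowest Fos and Fosb levels (replicate 3) had the highest shares of both forms (63.8% and 28.3%), and the one with the highest levels (replicate 1) the lowest (53.1% and 16.2%). With vector, replicate 3 was likewise lowest in level and highest in share. In NT, replicate 2 had Fos at 38.5 CPM against 113 CPM in replicate 1, but the shares were close, at 55.8% and 54.0% for Fosb-204 and 18.1% and 18.0% for Fos-203. How the authors' quantification treated reads from unspliced RNA is not stated, so a share is that of the assigned counts.

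**Figure D3:**
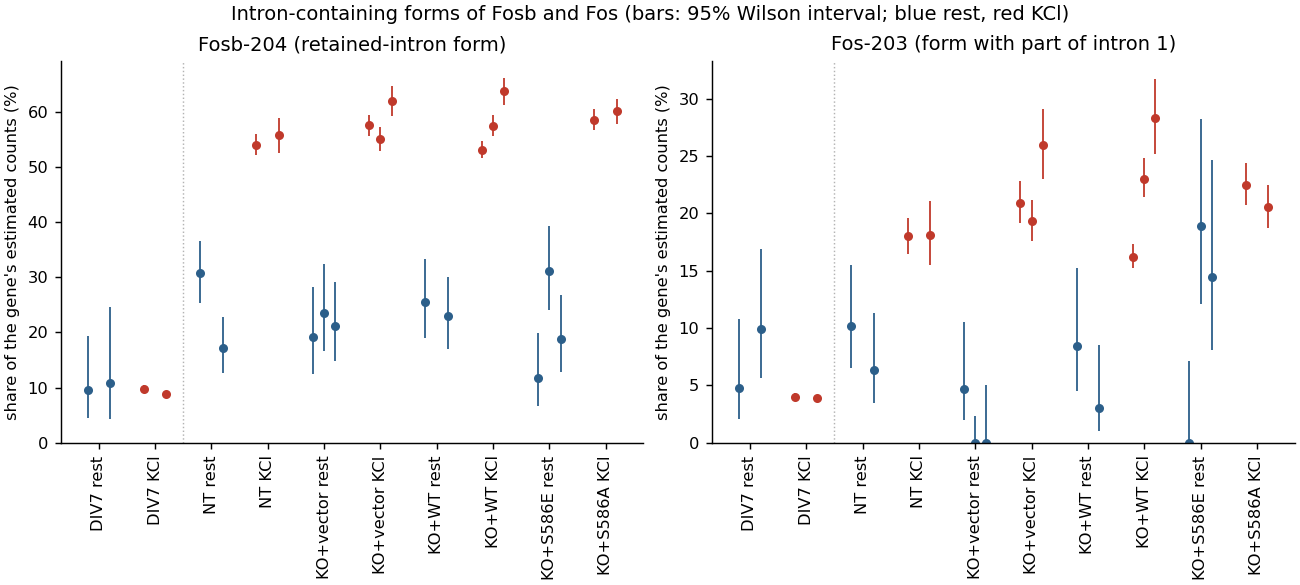
Share of the gene's estimated counts assigned to Fosb-204 (left) and Fos-203 (right) in each library, in percent, with 95% Wilson intervals that cover counting error only. The DIV18 libraries under KCl (red) lie at 53.1% to 63.8% for Fosb-204, above all resting ones (blue). The DIV7 libraries, which were poly(A)-selected, stay at or under 10.8%.

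Counted by form, 15 of the 21 forms were tested at each age. At DIV7, 8 were called higher, against 0.45% of all transcripts: Fosb-201, Fosb-204, Fosb-206, Fosb-207, Fos-201, Fos-202, Fos-203 and Junb-201. On leaving out 1 library, 0 to 2 forms were called at DIV7. At DIV18, 6 were called higher in the average over constructs, against 0.0418% of all transcripts. Fosb-204 changed by 5.07 ± 0.31 (edgeR adjusted p = 3.76e-06) and the coding form Fosb-201 by 2.95 ± 0.26 (edgeR adjusted p = 0.000268) on the log2 scale. Fos-203 changed by 6.09 ± 0.64 and the coding form Fos-201 by 3.76 ± 0.39 (edgeR adjusted p = 0.00103 for each). Junb-201, the coding form, changed by 1.69 ± 0.20 and Junb-202 by 4.94 ± 0.59 (edgeR adjusted p = 0.00331 for each).

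Junb-202 is a noncoding form annotated downstream of Junb-201 on the same strand (chr8:84974484-84976542 against chr8:84976910-84978718, GRCm38). It had 0 to 4 estimated counts in the 10 resting DIV18 libraries, 22 to 61 in the 10 depolarized ones, and 0 or 1 in the DIV7 libraries, which were poly(A)-selected. Jun-201 and Jund-201 are single-exon genes with 1 form each and show no such split. Fosl2-202, a form with 81.8% of its bases in introns, had 2 to 14 counts at rest and 6 to 61 under KCl at DIV18 and did not pass (log2 change 1.96 ± 0.52, edgeR adjusted p = 0.407).

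The spliced forms of Fosb include Fosb-206 and Fosb-207, which skip 140 bases that the full-length form Fosb-201 keeps (chr7:19305007-19305146, GRCm38, minus strand). Skipping of this stretch is the event known to make ΔFosB, which lacks the C-terminal part of FosB. The sequence is shown because it is what separates the full-length from the truncated forms, with the 140 bases in capitals, followed by the joined sequence of Fosb-207. Both are from GENCODE M21.
Fosb-201: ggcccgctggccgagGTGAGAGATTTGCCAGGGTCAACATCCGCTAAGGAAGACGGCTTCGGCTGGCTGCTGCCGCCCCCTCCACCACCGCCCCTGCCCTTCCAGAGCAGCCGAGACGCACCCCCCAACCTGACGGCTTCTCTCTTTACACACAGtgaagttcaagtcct
Fosb-207: ggcccgctggccgagtgaagttcaagtcct
In the joined sequence the letters tga follow the junction directly, and the annotated coding sequence is 1014 bases in Fosb-201, 711 bases in Fosb-206 and 603 bases in Fosb-207, which also lacks the third exon. At DIV7 both skipping forms were at 0 counts at rest and together had 601 and 793 counts under KCl, which was 5.63% ± 1.00 (SD, n = 2) of spliced Fosb counts. At DIV18 under KCl they held 5.19% ± 1.99 (SD, n = 10), with a range of 2.58% to 7.80%. At rest the denominators were 76 to 181 counts at DIV18, and the share ranged from 0.0% to 19.5%. The difference between the states was not tested for this share.

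The members' shares of the summed TPM of all 7 genes describe the RNA pool of the 2 families. The sum includes forms without a coding sequence, such as Fosb-204 and Fos-203, so not all of it could make AP-1 protein. At DIV7 the pool rose from 391 and 424 TPM at rest to 1690 and 1790 TPM under KCl. Jund made up 64.8% ± 0.03 of it at rest (SD, n = 2), Jun 18.4% ± 0.09 and Fosl2 11.6% ± 0.17, with Fos at 1.27% ± 0.18. Under KCl, Fos was the largest at 38.7% ± 0.36, followed by Junb at 23.2% ± 1.32, Fosb at 14.1% ± 0.35 and Jund at 14.0% ± 0.84. The Fos family together went from 13.6% ± 0.42 to 57.1% ± 0.53. By estimated counts, which favour the long Fosl2 transcript, its resting share was 32.4%.

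At DIV18 the pool ranged from 103 to 168 TPM in the 10 resting libraries and from 185 to 496 TPM in the 10 depolarized ones. At rest Jund held 53.1% ± 2.86 (SD, n = 10), Jun 23.8% ± 1.37 and Junb 15.7% ± 2.22. Under KCl Jund was still the largest at 31.3% ± 4.70 (SD, n = 10), with Junb at 24.5% ± 3.04, Fos at 18.0% ± 4.17, Jun at 15.7% ± 3.08 and Fosb at 8.69% ± 1.08. The Fos family went from 7.38% ± 1.53 to 28.4% ± 4.60, so Jun-family RNA was the larger part at DIV18 in both states. With coding transcripts alone the depolarized Fos-family share at DIV18 was 17.6%, and by estimated counts the resting one was 11.7%.

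**Figure D4:**
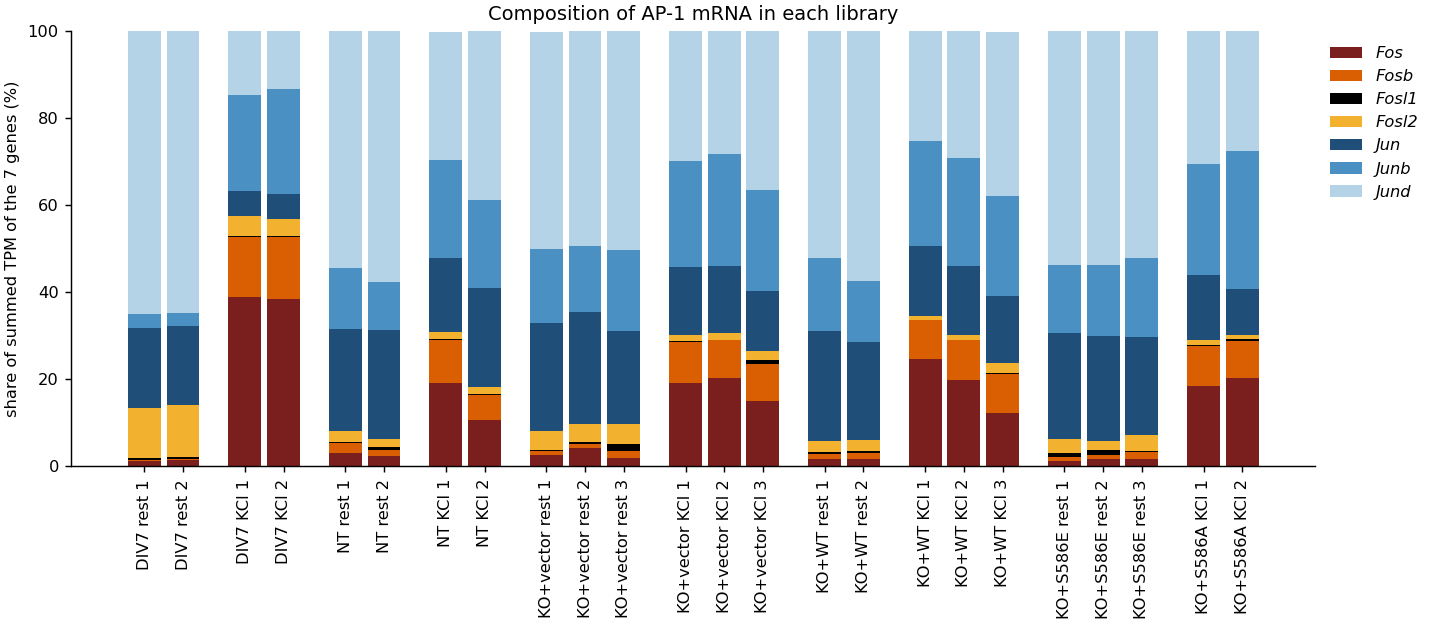
Share of each gene in the summed TPM of the 7 genes, noncoding forms included, in percent, as 1 stacked bar per library from 0 to 100. Fos, Fosb and Fosl2 (red to yellow) fill 56.7% to 57.5% of the depolarized DIV7 bars together with Fosl1 (black), and 18.2% to 34.7% of the depolarized DIV18 bars.

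Among the 10 depolarized DIV18 libraries, the levels of most members tested ran with that of Fos. How many of all genes do so over these libraries was not counted. The relation can therefore not be read as particular to the family. Over these libraries, log2 CPM of Fos correlated with that of Junb (Pearson r = 0.976, permutation p = 0.00018, adjusted 0.000475 over 5 relations; Spearman rho = 0.673, permutation p = 0.0392). It correlated with Fosb at r = 0.955 (permutation p = 0.00019, adjusted 0.000475; rho = 0.83, permutation p = 0.00441), with Jund at r = 0.867 (permutation p = 0.00101, adjusted 0.00168; rho = 0.709, permutation p = 0.0258) and with Jun at r = 0.707 (permutation p = 0.0185, adjusted 0.0231; rho = 0.83, permutation p = 0.00436). Fosl2 gave r = 0.161 (permutation p = 0.646; rho = 0.382, permutation p = 0.278). Without the 2 libraries farthest from the median of Fos, r was 0.927 for Junb, 0.95 for Fosb, 0.759 for Jund, 0.803 for Jun and 0.0154 for Fosl2. Taken as deviations from the group means, r was 0.995 for Junb, 0.958 for Fosb, 0.896 for Jund, 0.866 for Jun and 0.314 for Fosl2.

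WT KCl replicate 1 ranked first of the 10 in Fos, Fosb, Junb, Jun and Jund alike, and WT KCl replicate 3 ranked last in Fos, Junb, Jun and Jund and ninth in Fosb. NT KCl replicate 2 ranked 9 of 10 in Fos and Junb and 10 of 10 in Fosb. The labels name no batch, harvest or sequencing run that would separate these libraries.

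Over all 20 DIV18 libraries, which fall into rest and KCl, the genes whose log2 CPM ran most like that of Fos among 13205 genes were Egr1 (r = 0.985), Npas4 (r = 0.981) and Ier2 (r = 0.973). For Fosb they were Npas4 (r = 0.993), Egr4 (r = 0.98) and Egr1 (r = 0.979), and for Junb they were Arc (r = 0.982), Ier2 (r = 0.977) and Egr4 (r = 0.968). Egr1, Egr4 and Npas4 encode early-response transcription factors, and Arc a protein of dendrites and synapses. For Jun the nearest were Ccn1 (r = 0.876), Dusp1 (r = 0.873) and Mfap2 (r = 0.857), at lower values.

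Genes that act on or beside AP-1 were followed in 6 lists, chosen with earlier results on these libraries known. Over all genes, 1455 of 19822 were called higher and 1916 lower at DIV7. In the DIV18 average, 77 of 20940 were called higher and 17 lower. No list was tested against these shares. Of 16 other early-response transcription factors, 13 were called higher and 2 lower at DIV7, with a median log2 change of 2.54 against 0.00 over all genes. The largest were Nr4a1 (5.77), Npas4 (5.40), Egr2 (5.32), Egr1 (5.20), Nr4a2 (4.37) and Klf4 (3.79), and the 2 lower were Myc (-1.28) and Klf10 (-0.76). At DIV18, 6 of the 16 were called higher on average and 0 lower: Npas4 (5.65), Egr2 (2.51), Egr4 (2.37), Egr1 (2.15), Ier2 (1.90) and Nr4a1 (1.81), with a list median of 0.33. In the comparison of NT at DIV18 with DIV7, 8 of these 16 had a lower response, among them Nr4a1 (-4.26), Nr4a2 (-4.03), Egr1 (-3.48), Egr2 (-3.45) and Klf4 (-3.40), and 1, Klf10, a higher one (0.76). Npas4 was not among them.

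Of 16 genes that limit AP-1 through its kinases, mRNA or protein, 6 were called higher at DIV7 and 0 lower. These were Zfp36 (2.35), which binds AU-rich mRNAs for decay, the MAP kinase phosphatases Dusp1 (1.93) and Dusp6 (1.73), Btg2 (1.86), Zfp36l2 (1.01) and Tob1 (0.46). At DIV18, Dusp1 (1.20) was the 1 called. Of 11 tested genes for other bZIP partners and inhibitors, 5 were called higher at DIV7, namely Maff (2.36), Atf3 (0.83), Mafk (0.61), Atf4 (0.61) and Atf2 (0.21), and Atf7 was lower (-0.45), while 0 were called at DIV18.

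Genes that act upstream of Fos and Jun had smaller changes. Of 23 activators, 4 were called higher at DIV7 (Srf 0.57, Rps6ka3 0.34, Mef2a 0.21, Mef2c 0.16) and 5 lower (Crtc3 -0.59, Crtc2 -0.47, Elk1 -0.45, Rps6ka4 -0.43, Crtc1 -0.23), with a median of -0.05. Of 13 genes of the Jun N-terminal kinase pathway, which phosphorylates Jun, 0 were called higher and 2 lower, Map3k1 (-1.09) and Map3k11 (-0.93). Over all genes, 1916 of 19822 were called lower at DIV7 and 1455 higher, so counts this small do not set a list apart. Of 17 tested genes described as AP-1 targets, 3 were called higher at DIV7, namely Bdnf (1.12), Vgf (0.74) and Vim (0.21), and at DIV18 0 of 18 were. At DIV18, 0 of the 23 activators and 0 of the 13 kinase pathway genes were called on average.

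Loss of Smarcc2 was compared with NT at rest and under KCl, and its replacement with the vector. At rest, Fosl2 was the 1 member called, at 31.8, 28.4 and 32.6 CPM with vector against 18.9 and 21.3 CPM in NT, a log2 difference of 0.62 ± 0.12 (edgeR adjusted p = 0.00593). The libraries did not overlap, and 2.13% of all genes were called higher in this comparison (446 of 20940) and 790 lower. The call was lost with length offsets (log2 0.59), in a fit of these groups alone (log2 0.63), and without NT rest replicate 1 (log2 0.53) or 2 (log2 0.71), with an adjusted p of at most 0.0693. With WT added back, Fosl2 stood at 26.3 and 22.3 CPM, between the others (-0.35 ± 0.12 against vector, edgeR adjusted p = 0.28). Oligodendrocyte-lineage markers were lower in the same comparison: 4 of 8 were called (Sox10, Pdgfra, Cspg4 and Olig1), their sum was 134 to 152 CPM with vector against 197 to 207 CPM in NT, and Sox10 was at 0 with vector. Of 6 astrocyte markers Aldoc was called lower, and their sum was 124 to 452 CPM with vector against 537 to 548 CPM in NT. Of 3 microglial markers tested Csf1r was called lower, and of 6 neuronal markers 0 were called. The part of these cells in the Fosl2 difference was not tested.

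Jund had the opposite order at rest, with 109, 122 and 99.2 CPM with vector, 142 and 167 CPM in NT and 139 and 150 CPM with WT. The differences did not pass (vector against NT -0.49 ± 0.17, edgeR adjusted p = 0.0919; WT against vector 0.39 ± 0.17, edgeR adjusted p = 0.392). Fosb at rest stood at 11.1 and 9.64 CPM in NT and 5.06, 5.80 and 7.83 CPM with vector, which did not pass either (-0.74 ± 0.40, edgeR adjusted p = 0.306).

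Under KCl, 0 members were called between vector and NT, against 2.67% of all genes, and the Fos difference was 0.21 (95% interval -0.81 to 1.23). It was 1.19 without NT KCl replicate 1 and -0.37 without NT KCl replicate 2. The difference in response to KCl was not called for any member either. For vector minus NT the differences were 0.44 for Fos (95% interval -1.20 to 2.07), 0.93 for Fosb (-0.14 to 2.01) and 0.12 for Junb (-0.78 to 1.02). All 3 intervals extend past 1 on the log2 scale. edgeR called 0.0% of all genes in this comparison, with 1845 genes and 1 member at an unadjusted p under 0.05, and DESeq2 called 7 genes. For WT minus vector the differences were 0.72 for Fos (-0.92 to 2.35), 0.00 for Fosb (-1.02 to 1.02) and 0.00 for Junb (-0.82 to 0.82). edgeR again called 0.0% of all genes, with 768 genes and 0 members at an unadjusted p under 0.05, and DESeq2 called 1 gene.

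WT against vector gave 0 called members at rest (0.0143% of all genes called) and under KCl (0.00955%). At rest 2 members, Fosl2 and Jund, had an unadjusted p under 0.05 by edgeR, and under KCl 0 had. DESeq2 called 178 genes at rest and 6 under KCl.

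The 2 substituted forms of Smarcc2 were measured in 1 state each. In that state, all their libraries held more Smarcc2 RNA than all those with WT. The substitution and the level of the construct thus change together and cannot be told apart. At rest S586E had Fos at 2.75, 3.90 and 3.60 CPM, Fosb at 5.16, 6.12 and 6.16 CPM and Junb at 38.4, 46.3 and 40.9 CPM. Fos lay below both WT libraries (5.08 and 4.65 CPM) without passing the test (-0.50 ± 0.68, edgeR adjusted p = 0.817). Under KCl S586A had Fos at 99.8 and 101 CPM, Fosb at 128 and 105 CPM and Junb at 164 and 178 CPM, all inside the range of the WT libraries. Its Fos difference from WT was -0.16 (95% interval -1.17 to 0.86), and 0.54 without WT KCl replicate 1. edgeR called 0.0% of all genes for S586E against WT at rest and 0.0% for S586A against WT under KCl. At an unadjusted p under 0.05 there were 2696 and 1824 genes and 0 members in each, and DESeq2 called 319 and 19 genes.

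Ordered by mean CPM, Fos was highest under KCl at DIV7 (608), followed by KCl with WT (112), S586A (100), vector (87.8) and NT (76.0), whose libraries overlap. The resting groups followed, from NT (7.38) and vector (6.25) through WT (4.86) and DIV7 (4.06) to S586E (3.42). Among the neighbours in this order, the libraries of vector overlap those of NT and of WT, and those of DIV7 overlap those of S586E. Every depolarized library was above every resting one. DIV7 was normalised separately, and its place among the resting groups depended on the unit. By mean TPM it was the highest resting group (5.15), above NT (4.39), vector (3.5), WT (2.08) and S586E (1.83).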

How the data were processed

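RNA of 24 neuronal libraries was quantified by transcript. The deposited estimated counts were made by the authors with kallisto, after cutadapt and FastQC, per the submitters' processing notes. Versions, genome build, annotation and strand setting are not given in the sources used here. The deposited TPM values are the authors' own scaling by effective length, and were summed per gene for shares and levels between genes. Of 142552 transcripts, 141429 (99.2%) matched GENCODE M21 (GRCm38), and the rest held at most 0.467% of a library's counts.

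Counts were summed per gene and rounded. Genes were tested with edgeR 4.0.16 under R 4.3.3, by its two-sided quasi-likelihood test with TMM factors and filterByExpr. P-values were adjusted (Benjamini-Hochberg) over every gene tested, and an adjusted p under 0.05 was a call. DIV7 (4 libraries), DIV18 (20 libraries, 8 groups) and, for the comparison of ages, all 24 were fitted separately, for 14 comparisons of genes and 2 of transcript forms. Replicates varied by 6.44% at DIV7 and 14.6% at DIV18 (edgeR's common biological coefficient of variation). Standard errors were derived from the F statistic. Correlations used 100000 permutations. Transcript forms lack a measure of assignment uncertainty here, so splitting between forms adds an error not in their p-values.

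The members, gene lists and tests were chosen with earlier results of these data known. Named were all 7 members, at most 6 called genes per list by size and, for likeness, the 3 genes nearest to Fos, Fosb, Junb and Jun with a mean of at least 1 CPM. On simulated counts with 200 genes changed 4-fold, 98% were recovered at DIV7 (13.7% of calls false, 19822 genes), 100% for the DIV18 average (6.98% false, 20940 genes), 82.5% for the comparison of ages (4.62% false, 22459 genes) and 93% for KO with vector against NT at rest (0.535% false, 20940 genes). Alternatives were DESeq2 1.42.0, median-of-ratios size factors, no low-count filter, coding transcripts only, length offsets, fits restricted to the compared groups, a replicate block and leaving out each library.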

Additional observations from a re-analysis of the deposited data

Results flagged for a closer look

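The responses of Fosb, Fos and Junb to KCl differed between NT neurons at DIV18 and wild-type neurons at DIV7 by the test of the difference itself: -4.85 for Fosb, -3.88 for Fos and -3.38 for Junb on the log2 scale (edgeR adjusted p = 3.93e-05, 0.015 and 0.000161). Jund was lower in both depolarized DIV7 libraries than in both resting ones (ratio of means 0.939), and higher in all 3 depolarized libraries of KO with vector than in the resting ones (ratio 1.51). Neither response was called (log2 change -0.09, edgeR adjusted p = 0.279, at DIV7 and 0.59, edgeR adjusted p = 0.262, with vector). How many of all genes separate in this way with so few libraries was not counted. The difference between these 2 Jund responses was not tested.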

How the results depend on the processing

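Of the alternative values of the members' log2 changes that are printed or plotted above, 622 kept their direction and side of the threshold, 26 lost the call, 28 gained it and 27 changed sign. Every sign change was in a difference that was not called. The cause of these changes was not tested, beyond the smaller number of libraries or transcripts that some alternatives use by construction. On leaving out each library in turn, members called numbered 5 to 6 of 7 at DIV7, 0 to 2 in NT, 1 to 3 with vector, 1 to 3 with WT, 3 to 5 in the average over constructs, 2 to 3 in the comparison of ages, and 0 to 1 for vector against NT at rest, and forms called at DIV7 numbered 0 to 2 in place of 8.

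Without the low-count filter, members called numbered 4 in NT, 5 with vector, 4 with WT, 5 in the average, 1 in each difference of responses between constructs (vector minus NT, WT minus vector), 4 for vector against NT at rest and 1 for WT against vector at rest. In NT, DESeq2 called 3 members, and coding transcripts alone or a fit of the NT libraries 0, and a fit of the WT libraries alone called 1 member in WT. For vector against NT at rest, DESeq2 called 2 members, and length offsets or a fit of these groups alone 0. The Fos-family share with coding transcripts alone was 12.3% at DIV7 rest, 51.7% at DIV7 KCl, 5.11% at DIV18 rest and 17.6% at DIV18 KCl, and by estimated counts 32.4%, 64.0% and 11.7% for the first 3.

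Replicate numbers were not taken as pairs: the labels do not tie them to an embryo, and same-numbered libraries' deviations from their group means correlated at 0.0201 at DIV7, -0.0465 in NT, 0.128, 0.0689 and 0.238 with vector and -0.0293 and -0.0444 with WT. With vector, rest replicate 1 correlated best with KCl replicate 2 (0.131). In comparisons of rest with KCl, the replicate block paired libraries within a construct, so WT KCl replicate 3 and the S586E and S586A libraries dropped out, and in comparisons within a state the replicate number was a term in the fit of all DIV18 libraries. With the block, 3 members were called in NT, Junb was also called with WT (log2 2.06) and Jun in the average (log2 0.67), and forms called numbered 0 at DIV7 and 3 at DIV18. The block changed the sign of WT minus vector to 0.277 for Fosb and 0.339 for Junb, and all genes called at DIV7 numbered 5857.

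WT minus vector lay near 0 for these genes and turned positive in other settings too: for Fosb 0.112 with coding transcripts alone and 0.007 with DESeq2, and for Junb 0.001 with median-of-ratios factors, 0.024 with coding transcripts alone and 0.001 with DESeq2. Leaving out each library gave -0.336 to 0.276 for Fosb and -0.343 to 0.316 for Junb. It gave -0.134 to 1.427 for Fos and -0.248 to 0.63 for Junb in vector minus NT, -0.023 to 0.265 for Jund in NT, -0.011 to 0.233 for Fosl2 with WT, -0.047 to 0.218 for Jun between the ages, and, under KCl, -0.37 to 1.19 for Fos between vector and NT and -0.587 to 0.536 for Fos between S586A and WT.

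Counts over all genes, either direction, moved more: 3371 at DIV7 (1459 to 5857 over the alternatives), 2 in NT (0 to 192), 15 with vector (5 to 515), 9 with WT (1 to 196), 94 in the average (28 to 442), 408 between the ages (196 to 657), 1236 for vector against NT at rest (100 to 2016) and 560 under KCl (37 to 1437). The lowest of the last 2 came without NT rest replicate 2 and NT KCl replicate 2. Without the low-count filter, the counts of 0 to 3 in the remaining comparisons became 448 (vector minus NT), 116 (WT minus vector), 604 and 127 (WT against vector at rest and under KCl), 782 (S586E) and 225 (S586A). Depth limits Fosl1, with at most 23 counts at DIV18, and the form shares at rest, where Fos had 50 to 177 counts in a library.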
